A study of Mus musculus with 2 samples.

Results

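Transcripts that mark macrophages and their recycling of red cell iron were read in sorted regulatory T cells (Treg), CD4 lymphocytes that hold immune responses in check. The group was given as 39 named genes, and of the probe sets that the platform annotation pairs with a gene alone, that of highest mean over both arrays stands for that gene. Of the 39 genes, 38 had such a probe set, out of 18194 genes in all, and Itgad, an integrin chain of red pulp macrophages, had none. The genes were picked with earlier results of these data known, so their levels are a description and support nothing by themselves.

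Macrophages engulf dying cells and debris, degrade them in lysosomes and sense antibody-coated particles through Fc receptors. Those of the splenic red pulp clear aged red cells: haem is opened by haem oxygenase and the freed iron is stored or exported through ferroportin. The transcription factor SpiC is required for red pulp macrophages to form, and they carry VCAM-1 and the protein of Adgre1 at the surface.

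Female mice 6 to 8 weeks old gave spleen and lymph nodes, from which the Treg were sorted by FACS. Both donor genotypes are written Foxp3<Cre/wtS> in the sample labels, with Cre recombinase at the Foxp3 locus, and 1 group was Stat3<fl/wt> (1 floxed allele) and the other Stat3<fl/fl> (both floxed). The design text writes the fl/fl donors as Cre/wt. Foxp3 is X-linked, so in these heterozygous females Cre is made only where the X that carries it is active. Which surface markers were gated, whether Cre-expressing cells were selected and how many mice were pooled are not stated in the labels. There was 1 array per genotype, so no difference below has a replicate check and no test was possible.

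Values are log2 signals as deposited, processed with GCRMA, a method that subtracts a background predicted from probe sequence. Below log2 5 they pile up at a dense low end, and such a gene is called not detected here. Without that floor, 68.2% of 18194 genes read higher in fl/fl, against 47.5% of the 9774 genes measured with it. Signals of different probe sets do not rank genes by RNA amount. All 5 measured T cell markers and 9 of the 10 Treg markers with a probe set stood above log2 10 in both arrays, while Foxp3 itself was under log2 5, at 4.09 (fl/wt) and 3.52 (fl/fl). Stat3 differed between the arrays by -0.0083 to -0.083 over its 3 detected probe sets, and their position relative to the floxed exons is not known here, so they do not check the genotype labels. In RNA from a whole sorted sample, fewer cells of a type and less RNA per cell cannot be told apart.

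The macrophage genes were read at high signal in both arrays and at nearly the same level in each. Of the 38 genes with a probe set, 36 (94.7%) reached log2 5 in both arrays, against 53.1% of all genes, and 31 (81.6%) reached log2 10 in both, against 28.1% of all genes. These shares describe a list assembled with the levels in view and nothing is read from them. Not detected were Trem2, a lipid-sensing receptor of tissue macrophages, at 3.02 (fl/wt) and 3.07 (fl/fl), and Siglec1, the sialoadhesin of marginal zone and lymph node macrophages, at 3.01 and 2.91. The detected gene nearest to the threshold was Msr1 (7.64 and 7.44), so no gene lay close to log2 5. Nearest to log2 10 were Blvrb above it (10.40 and 10.29) and Timd4 below it (8.74 and 8.65).

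**Figure D1:**
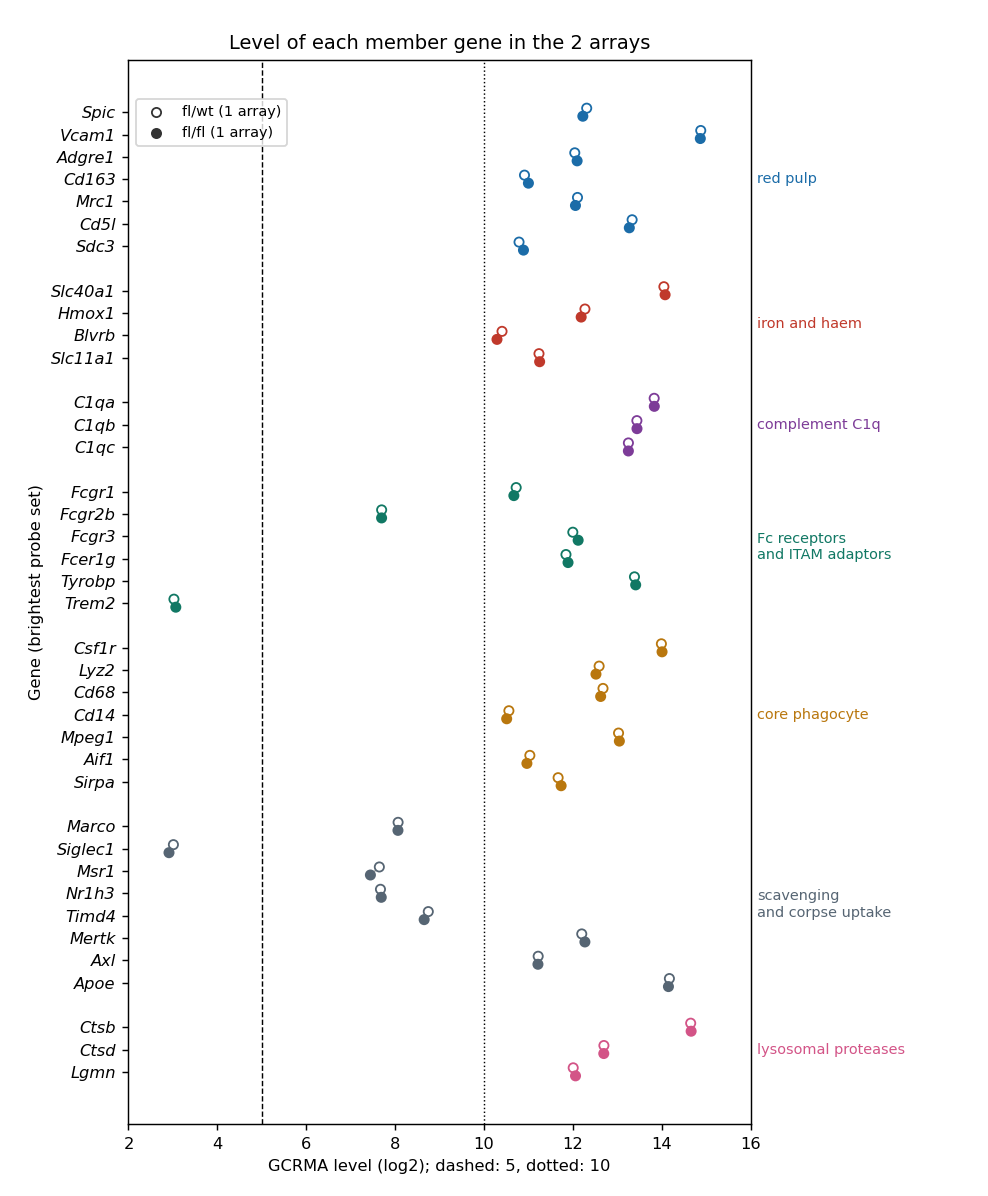
Log2 GCRMA level of the 38 genes with a probe set, in the fl/wt array (open points) and the fl/fl array (filled points), grouped by role, with lines at log2 5 and log2 10. Trem2 and Siglec1 lie left of log2 5, 5 genes lie between 5 and 10, and 31 lie right of 10 in both arrays. The open and filled points of each gene nearly coincide.

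Between genotypes, none of the 36 detected genes differed by 1.5-fold, where 0.645% of all 9774 genes detected in at least 1 array did, and none by 1.2-fold, where 5.23% did. Past 2-fold the share of all genes was 0.0512%. With 36 genes, a count of 0 at 1.5-fold lies near that background share. The differences, fl/fl minus fl/wt, ran from -0.20 (Msr1) to 0.12 (Fcgr3) on the log2 scale, with 17 genes higher and 19 lower in fl/fl. Among all genes, 47.5% were higher and 52.5% lower. When each array was centred on its own median over all probe sets, all differences shifted down by the same amount. The split of the group became 8 higher and 28 lower, and that of all genes 31.5% and 68.5%. Both array medians lie under log2 5, so this scaling is set by the low end, where genes are called not detected. Quantile normalisation gave 19 higher and 15 lower in the group, with C1qc and Ctsb unchanged, and loess of the difference gave 19 and 17. Without rescaling, the median difference was -0.00085 over the 36 genes and -0.0045 over all genes. A difference of at least 0.1 was seen for 3 of the 36 (8.33%): Msr1, Fcgr3 and Blvrb. Over all genes the share was 26.8%, and over the 5115 genes that reached log2 10 in each array, where values are less scattered, 10.2%. Of the 31 macrophage genes above log2 10, Fcgr3 and Blvrb were the 2 that reached it. The median size of difference was 0.050 over these 31 and 0.036 over the 5115.

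**Figure D2:**
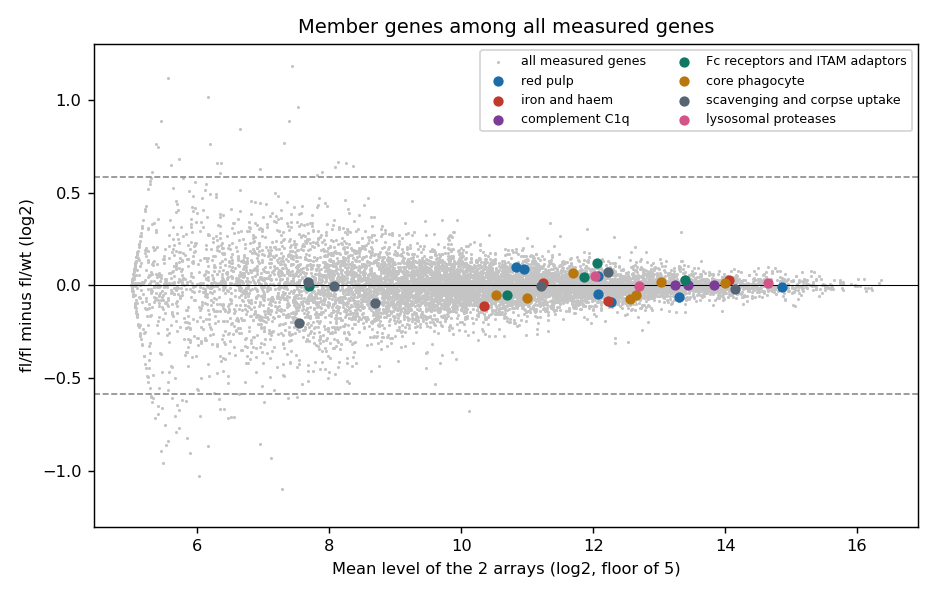
Difference between the arrays (fl/fl minus fl/wt, log2) against the mean level of both arrays, for all 9774 genes detected in at least 1 array (grey, 1 point a gene) and the 36 macrophage genes (coloured by role). Dashed lines mark 1.5-fold. All 36 lie between the lines, and the grey points spread more widely at low levels than at high ones.

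Red pulp genes were the first group by role, and all 7 with a probe set were above log2 10 in both arrays. Spic, which encodes the factor that red pulp macrophages require, read 12.31 (fl/wt) and 12.22 (fl/fl), a difference of -0.087. Its other probe set read 12.14 and 12.10. Both Spic probe sets carry a suffix (_x_at and _s_at) of probes that can be shared between transcripts. Probe sets with a suffix treated alike here gave the only detected reading of Aif1 (_s_at) and of Adgre1, Fcgr2b, Nr1h3, Apoe and Ctsd (_a_at). The suffix _a_at marks transcripts of the same gene, which is not the same limit. These genes have no reading without such a suffix here. Vcam1, an adhesion molecule on red pulp macrophages and activated endothelium, read 14.87 and 14.86. Its other probe sets read 9.21 and 9.16, and 8.37 and 8.27, so all 3 were slightly lower in fl/fl and the gene is bright by 1 of them. Adgre1, an adhesion-type receptor that marks mature mouse macrophages, read 12.04 and 12.09.

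The remaining red pulp genes also read alike in the arrays. Cd163, the scavenger receptor for haemoglobin bound to haptoglobin, stood at 10.908 (fl/wt) and 10.996 (fl/fl). Mrc1, the mannose receptor, stood at 12.10 and 12.05, and Cd5l, a secreted survival factor of tissue macrophages, at 13.33 and 13.27. Sdc3, a cell-surface heparan sulfate proteoglycan, differed by 0.0998 (10.79 and 10.89), the largest difference of this role. Its 2 other probe sets were under log2 5. Of these genes, 3 read higher and 4 lower in fl/fl, for a median difference of -0.0099.

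Iron and haem handling covered haem breakdown, iron export and phagosomal transport, and all 4 genes were above log2 10 in both arrays. Hmox1, the haem oxygenase that opens the haem ring, read 12.27 (fl/wt) and 12.18 (fl/fl), a difference of -0.085. Blvrb, a reductase of the haem breakdown pathway, read 10.40 and 10.29, and its difference of -0.11 was the third largest in size among the 36 genes. Slc40a1, the ferroportin gene that encodes the cell's iron exporter, read 14.04 and 14.07 by 1 probe set and 11.76 and 11.76 by its other. Slc11a1, the metal transporter Nramp1 of phagosomes, read 11.23 and 11.25. With 2 genes higher and 2 lower, the median difference was -0.035. Neither Hmox1 nor Blvrb had a second detected probe set.

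Other genes of iron and haem metabolism, many of which most cells need, were detected in part. Of 27 with a probe set, 19 (70.4%) were detected in both arrays and 8 were under log2 5 in both. Fth1, the ferritin heavy chain that stores iron, stood at 15.38 (fl/wt) and 15.36 (fl/fl), and Tfrc, the transferrin receptor that takes up iron, at 11.95 and 11.97. Slc48a1, a haem transporter of the phagolysosome, stood at 10.64 and 10.63. Not detected were the plasma scavengers Hp (haptoglobin, 3.57 and 3.61) and Hpx (haemopexin, 2.17 and 2.18) and the copper oxidase Cp (ceruloplasmin, 3.65 and 3.94). Among the 19, 9 were higher and 10 lower, none by 1.5-fold, from -0.057 for the oxidative stress factor Nfe2l2 to 0.12 for the iron importer Slc11a2. The other detected probe set of each went the opposite way, by 0.027 for Nfe2l2 and by -0.050 for Slc11a2. The median was -0.0081.

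Red cell markers were mostly not detected. Of the 6 erythroid markers with a probe set, Epor (7.38 and 6.52) and Alas2 (6.26 and 5.97) were detected, both lower in fl/fl, Epor past 1.5-fold. The globin gene Hba-a1 was at 1.64 and 1.65, the erythroid factor Klf1 at 1.84 and 1.85, Epb42 at 3.26 and 3.31, and the anion exchanger Slc4a1 at 4.444 and 4.003. Summed on the linear scale, the detected erythroid markers came to 243 signal units (fl/wt) and 155 (fl/fl). The 4 iron and haem genes came to 25577 and 25542. The lists differ in their genes and number of genes, so these sums cannot be set against each other. The part of erythroid RNA in the Hmox1 and Blvrb differences was not tested.

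C1q, the recognition molecule of the classical complement pathway, is built from 3 chains and made largely by macrophages. The genes of the 3 chains showed the smallest spread of the 7 roles, with differences from -0.00055 to 0.0027. C1qa read 13.83 in both arrays, C1qb 13.44 in both and C1qc 13.25 (fl/wt) and 13.24 (fl/fl). The other probe sets of C1qb differed by 0.012 and 0.058. Signs here rest on the scaling: C1qa and C1qb turned lower in fl/fl only when arrays were centred on their medians. C1qc turned higher after loess.

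Of 16 other complement and complement receptor genes with a probe set, 8 (50.0%) were detected. Cfp, which encodes properdin, stood at 12.63 in both arrays and C2, the protease subunit of the classical convertase, at 9.65 (fl/wt) and 9.60 (fl/fl). The other detected probe sets of C2 differed by -0.020 and 0.24, in opposite directions. Vsig4, a complement receptor of resident macrophages, stood at 6.89 and 7.08, the largest difference of this list (0.19). Not detected were the proteases that pair with C1q, C1ra (3.19 in both) and C1s1 (3.25 and 3.26), the anaphylatoxin receptors C3ar1 (3.01 and 3.02) and C5ar1 (2.83 and 2.88), and Itgam (2.36 and 2.37), the alpha chain of complement receptor type 3. Of the 8 detected, 4 read higher and 4 lower in fl/fl (median -0.0011).

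Promoter sequence was available from RefSeq (GRCm38.p6) for 26 of the 39 genes, as the 250 bases before a transcription start. SpiC and its relative PU.1 bind DNA with a purine-rich core, the PU box. Its letters GAGGAA, searched on both strands (TTCCTC on the other), occurred in the windows of 13 of the 26 genes (50.0%) and of 25.9% of 27025 genes in the table. A match is a description of letters and not a binding site. The windows of 4 genes are shown for genes described here, chosen after the search: the neighbouring C1q chain genes and the phagocyte gene Cd68, with 1 match each, and Spic, with none. Each is written 5′ to 3′ on the gene's strand with the match in capitals. They are C1qb (chr4:136886201-136886450, minus strand), C1qc (chr4:136892915-136893164, minus strand), Cd68 (chr11:69666171-69666420, minus strand) and Spic (chr10:88683024-88683273, minus strand).
C1qb: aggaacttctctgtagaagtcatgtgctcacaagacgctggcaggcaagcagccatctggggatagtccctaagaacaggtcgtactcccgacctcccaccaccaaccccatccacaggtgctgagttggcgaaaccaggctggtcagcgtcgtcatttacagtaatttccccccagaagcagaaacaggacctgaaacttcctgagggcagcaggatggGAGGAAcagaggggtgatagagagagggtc
C1qc: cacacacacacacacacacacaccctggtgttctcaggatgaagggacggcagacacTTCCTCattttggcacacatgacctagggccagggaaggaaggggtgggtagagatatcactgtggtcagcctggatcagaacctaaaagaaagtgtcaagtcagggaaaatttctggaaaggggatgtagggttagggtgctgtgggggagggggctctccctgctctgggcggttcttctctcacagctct
Cd68: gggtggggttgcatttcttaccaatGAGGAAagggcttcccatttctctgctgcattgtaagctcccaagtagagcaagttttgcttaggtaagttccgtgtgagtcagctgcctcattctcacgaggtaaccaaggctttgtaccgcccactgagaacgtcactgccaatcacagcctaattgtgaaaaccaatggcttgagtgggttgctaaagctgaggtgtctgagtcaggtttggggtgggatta
Spic: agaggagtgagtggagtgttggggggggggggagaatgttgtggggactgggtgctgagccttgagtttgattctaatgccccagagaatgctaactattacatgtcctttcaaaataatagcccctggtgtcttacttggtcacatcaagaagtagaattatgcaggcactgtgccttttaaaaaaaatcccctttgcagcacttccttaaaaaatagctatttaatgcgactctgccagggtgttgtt

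Transcription factors of the macrophage lineage were themselves detected in 13 of 14 cases with a probe set. Spi1, which encodes PU.1, read 8.30 (fl/wt) and 8.54 (fl/fl), a difference of 0.23. Maf, also used by activated T cells, read 13.03 and 12.99, Cebpa 6.99 and 7.03, Irf8 11.91 and 11.95. The widest differences of this list, both under 1.5-fold, were those of a related pair. Tfec, a macrophage-restricted factor of the Mitf family, differed by 0.50 (6.93 and 7.42) and its relative Tfeb, a regulator of lysosomal genes, by -0.45 (8.16 and 7.71). Neither had a second detected probe set. Over the 13, 7 read higher and 6 lower in fl/fl (median 0.038).

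Fc receptors bind antibody, and most signal through a small adaptor with an immunoreceptor tyrosine-based activation motif (ITAM). Fcgr3, the low-affinity activating receptor, read 11.99 (fl/wt) and 12.11 (fl/fl), and its difference of 0.12 was the largest positive one among the 36 genes. Fcer1g, the adaptor it needs, read 11.84 and 11.89, a difference of 0.046 in the same direction. Fcgr1, the high-affinity IgG receptor, read 10.72 and 10.67. Fcgr2b, the inhibitory receptor, read 7.70 and 7.69 by 1 of its 5 probe sets, and the other 4 were under log2 5. Fcgr2b and Fcgr3 are close in sequence over their outer domains, so how far their probe sets share signal is uncertain. Tyrobp, the adaptor DAP12, read 13.38 and 13.41, whereas its partner receptor Trem2 was not detected by either of its probe sets. Of the 5 detected genes, 3 were higher and 2 lower. Their median of 0.027 turned to -0.0042 when arrays were centred on their medians. It was 0.028 under quantile normalisation and 0.031 after loess.

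Related receptors and their signalling proteins were detected for 12 of 14 genes. Treml4, a receptor of splenic macrophages and some dendritic cells, stood at 12.17 (fl/wt) and 12.19 (fl/fl), Fcgr4, a further activating receptor, at 9.96 and 9.86, and Fcgrt, the neonatal Fc receptor, at 12.10 and 12.01. Trem1, which marks neutrophils and monocytes, was not detected (3.23 and 3.22). The list had 3 genes higher and 9 lower in fl/fl, with a median of -0.072. By brightest probe set, its highest difference was that of Inpp5d, a lipid phosphatase that works with the inhibitory receptor (0.031). The other detected probe set of Inpp5d differed by 0.20, and those of Syk by -0.24 and 0.34, beside -0.11 for the brightest of Syk. The 1 gene of the list past 1.5-fold was Fcrla, a B cell protein, at 6.14 and 5.52, a difference of -0.62. Of 9 B cell markers with a probe set, 5 were detected, 1 higher and 4 lower, from -0.34 (Ms4a1, whose other detected probe set differed by 0.28) to 0.16 (Cd79a), and their summed linear signal was 2157 units (fl/wt) and 2032 (fl/fl). The brightest were Cd79b (10.34 and 10.26) and Cd22 (8.81 and 8.68), while Pax5 (1.88 and 1.89) and Ebf1 (3.43 and 3.55) were under log2 5. The part of B cell RNA in the Fcrla difference was not tested.

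Core phagocyte genes were all above log2 10 in both arrays. Csf1r, the receptor for the macrophage growth factor CSF-1, read 13.99 (fl/wt) and 14.00 (fl/fl). Its other probe sets differed by -0.055 and -0.058, against 0.015 for the brightest, so its direction is not settled. Lyz2, the lysozyme gene of myeloid cells, read 12.59 and 12.52, the lowest difference of this role (-0.071). Cd68, a lysosomal membrane glycoprotein, read 12.67 and 12.62, and Mpeg1, a pore-forming protein of phagosomes, 13.02 and 13.04. Cd14, the co-receptor for lipopolysaccharide, read 10.56 and 10.51. Aif1, an actin-bundling protein of macrophages, read 11.03 and 10.96. Sirpa, the receptor for the CD47 signal that restrains engulfment, read 11.66 and 11.73, and its second detected probe set differed by 0.012 in the same direction. With 3 higher and 4 lower, the median was -0.050, the lowest of the 7 roles, and it was -0.017 when probe sets of shared suffix were left out.

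Scavenging and the uptake of dead cells split by signal. Mertk and Axl, receptor kinases for apoptotic cells, read 12.20 and 12.27, and 11.22 and 11.21. Apoe, a lipid carrier secreted by macrophages, read 14.17 (fl/wt) and 14.15 (fl/fl). The 4 other detected genes were the only detected ones of any role under log2 10 apart from Fcgr2b. Timd4, a phosphatidylserine receptor of resident macrophages, read 8.74 and 8.65, and Marco, the scavenger receptor of marginal zone macrophages, 8.07 and 8.06. Nr1h3, the oxysterol receptor LXR alpha on which marginal zone macrophages depend, read 7.67 and 7.69. Msr1, the class A scavenger receptor, read 7.64 and 7.44, the largest difference in size of the 36 genes (-0.20), but its second detected probe set (5.57 and 5.61) differed by 0.037 in the opposite direction. Along with Siglec1, the marginal zone lectin Cd209b was not detected (3.32 in both arrays). Of the 7 detected genes, 2 read higher and 5 lower in fl/fl (median -0.0050).

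Lysosomal proteases, which many cell types also express, closed the group. Ctsb (cathepsin B) was read by 5 probe sets, all detected, whose differences ran from -0.031 to 0.027. Its brightest stood at 14.65 (fl/wt) and 14.66 (fl/fl). Ctsd (cathepsin D) read 12.69 in both arrays and Lgmn, the asparaginyl endopeptidase legumain, 12.004 and 12.056. The median was 0.010, and centring turned it to -0.021. It was 0.0070 under quantile normalisation and 0.013 after loess.

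**Figure D3:**
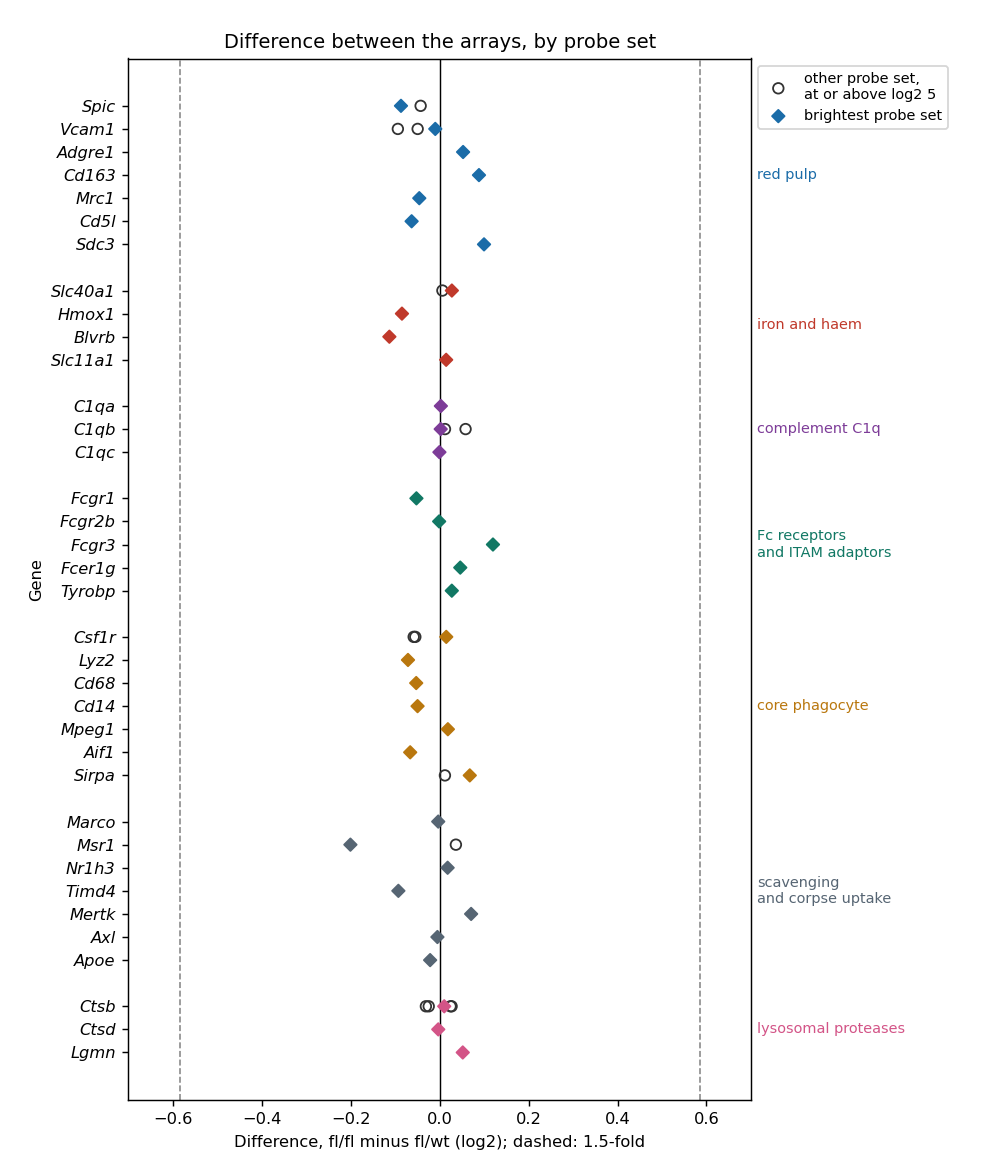
Difference between the arrays (fl/fl minus fl/wt, log2) of the 36 detected genes by their brightest probe set (diamonds, coloured by role) and by every other probe set at or above log2 5 in both arrays (open circles). Dashed lines mark 1.5-fold. No diamond lies beyond -0.20 or 0.12 and no circle beyond -0.094 or 0.058.

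Repeated readings of a gene came from 8 of the 36 genes, which had 2 or more detected probe sets. All detected probe sets pointed in 1 direction for 5 of them (Spic, Vcam1, Slc40a1, C1qb and Sirpa) and in both for Csf1r, Msr1 and Ctsb. The 14 additional probe sets differed by -0.094 to 0.058. Across all genes, the standard deviation of the differences among detected probe sets of a gene was 0.14. Every difference of the 36 genes but that of Msr1 was smaller in size than this value. It describes probe sets read on the same 2 samples, at all levels from log2 5, and does not measure a spread between mice or repeated arrays.

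Markers of other cells that a spleen or lymph node sort could hold were detected in part. Among markers of macrophages mostly from other organs, 2 of 12 were detected in both arrays: the lipid-binding Fabp4 (6.13 (fl/wt) and 6.18 (fl/fl)) and the chemokine receptor Cx3cr1 (5.88 and 5.90). The 12 also hold the marginal zone lectin Cd209b named above, and Siglech, which is counted in the dendritic cell list too. Neither was detected. Clec4f of Kupffer cells (2.01 and 2.02), Tmem119 of microglia (2.41 and 2.12) and Gata6 of peritoneal macrophages (2.39 and 2.40) were under log2 5. For monocytes and neutrophils, 2 of 11 were detected, Ccr2 (9.29 and 9.31), which Treg can also express, and Csf3r (6.63 and 6.83). S100a8 (2.82 and 2.85), S100a9 (2.71 and 2.72) and Elane (2.04 and 2.05) were not. For dendritic cells, 4 of 10 were detected: Ccr7 (11.70 and 11.67), Bst2 (11.60 and 11.61), Batf3 (8.37 and 8.54) and Itgax (6.81 and 7.01). Ccr7 and Bst2, the brightest, are not confined to dendritic cells, and T cells can also express them. Flt3 (2.72 in both) and Zbtb46 (3.38 and 3.40) were among those that were not. For endothelium and stroma, 2 of 9 were detected in both arrays, Stab2 (9.82 and 9.60) and Pecam1 (7.97 and 8.05).

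**Figure D4:**
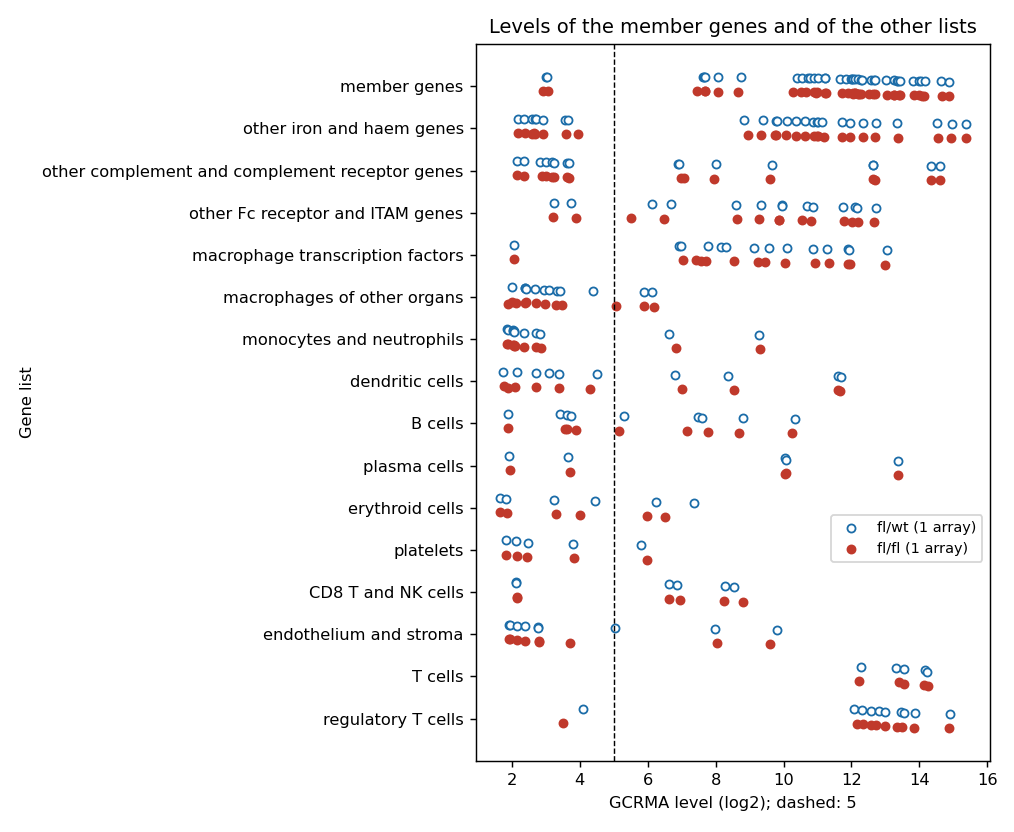
Log2 GCRMA level of the macrophage genes (top) and of each pathway or marker list, 1 point per gene and array, with fl/wt open and fl/fl filled and a line at log2 5. Of the macrophage genes 94.7% lie at or above the line in both arrays, a list assembled with the levels in view. Shares of the other lists ran from 16.7% (macrophages mostly from other organs) to 100% (T cells). Between these were monocytes and neutrophils (18.2%), dendritic cells (40.0%), B cells (55.6%), Treg (90%) and macrophage transcription factors (92.9%), among others. Nothing is read from these shares.

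Summed on the linear scale, the 36 detected macrophage genes came to 245867 signal units (fl/wt) and 245796 (fl/fl). The same sum over the 5 detected T cell markers was 64478 and 65082, and over the 9 detected Treg markers 99770 and 97454. The lists differ in their number of genes, so these sums cannot be set against each other. Such sums weigh bright probe sets most and do not measure the share of any cell. The cells that gave this signal were not identified by any measurement here.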

How the data were processed

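RNA of Treg from 2 Stat3 genotypes was measured on Affymetrix arrays, 1 per genotype, from total RNA labelled with biotin, per the labels' protocols. The authors deposited log2 values of 45101 probe sets, made with GCRMA per the submitters' processing notes. Version, settings and any further arrays in the normalisation are not stated in the sources used here. Their range fits a log2 scale (0.53 to 16.9, array medians 3.47 and 3.50). The platform annotation named probe sets, and all 38 member genes with one kept their symbol in RefSeq.

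Values under log2 5 were set to 5 for differences, and genes under it in both arrays were left out. Without replicates no test was run, and the number of arrays limits the precision. Members, gene lists and thresholds were chosen with earlier results of these data known. Every member is reported. Of each pathway list, the genes with the largest and smallest difference are named, and up to 6 by role. Of most marker lists, some genes are named. The T cell, platelet and CD8 T and NK lists are given by counts or sums only. Values were computed from the deposited table in Python 3.11.15 with pandas 2.3.3 and statsmodels 0.14.6 (lowess span 0.3), after the code was tested on simulated data. Alternatives changed the floor, the probe set rule, the scaling and the fold. Platelet, plasma cell and CD8 T and NK lists gave 1 of 5, 3 of 5 and 4 of 6 markers detected. The 3 detected plasma cell markers were above log2 10 in both arrays: Xbp1 (13.36 in fl/wt and 13.38 in fl/fl), Prdm1 (10.06 and 10.04) and Jchain (10.03 and 10.08). Xbp1 and Prdm1 are not confined to plasma cells. Sdc1 (3.65 and 3.71) and Tnfrsf17 (1.93 in both) were under log2 5.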

Additional observations from a re-analysis of the deposited data

How the results depend on the processing

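No alternative put any of the genes past 1.5-fold, and none passed a fold of 1.2 or 2 as measured. The number detected was 36 with floors of log2 4 and 6 and under the 3 other scalings, 33 as the median over probe sets and 29 without probe sets of shared suffix, which leaves some genes unread. At or above log2 10 were 26 under either of the last, and 25 at log2 11. The median over the group ran from -0.032 (arrays centred) to 0.0027. Of 314 values of single genes under alternatives, 17, over 14 genes, had the opposite sign. A shift larger than 0.14, the SD between probe sets of a gene, was seen once, for Fcgr1: -0.24 as the median over its probe sets, of which 1 was not detected. Of 72 group and role medians, 8 were opposite in sign. Detection has no value without a floor, and none was taken with 32 added. With 1 array per genotype, no array could be left out. No paired analysis was possible because each genotype has 1 array.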

Other observations

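Detection of these genes depended on which probe set was read. Of their 67 probe sets, 50 were detected in both arrays and 17 were not. Of these 17, 5 belonged to Trem2 and Siglec1, and 12 to 7 genes that another probe set read above log2 5, at levels of 1.81 to 4.43. Fcgr2b had 4 of the 12, and Sdc3 had 2, with 2.34 and 2.07 in fl/wt beside 10.79 for its brightest. A gene read by 1 probe set only, as 23 of the 38 were, has no such comparison.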
